A study of Homo sapiens with 5 samples.

Results

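The genes of the ASXL, BAP1 and FOXK complex encode the deubiquitinase BAP1 and proteins known to associate with it. The set holds 10 genes: ASXL1, ASXL2, BAP1, MBD5, MBD6, FOXK1, FOXK2, OGT, HCFC1 and KDM1B. Peaks of 3 ChIP-seq lists were assigned to a gene when at least 1 base of the peak lay within 5 kb of its start in the human genome build hg19, to either side. The rule took 23 of 94237 ASXL1 peaks, 5 of 21697 FOXK1 peaks and 17 of 78825 O-GlcNAc peaks, 45 peaks in all. ChIP-seq recovers the DNA held by a protein or modification with an antibody, and a peak is a stretch with more sequence tags than the control.

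The cells were of the Flp-In HEK293 T-REx line, which derives from human embryonic kidney and was built with a recombination site for transgenes and a tetracycline repressor. The labels give no genotype or treatment that differs between libraries. The ASXL1 and O-GlcNAc libraries were made from chromatin preparation 63 and the FOXK1 library from preparation 62, each with the input of its own preparation as control. There was 1 library for each antibody, so no value below has a replicate error and no test was made, and antibody and preparation cannot be told apart where FOXK1 is set beside the other lists. Each peak carries the score of the authors' peak caller, which was used here to rank peaks within their own list and not to compare lists. The depth of the libraries is unknown.

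BAP1 removes ubiquitin from histone H2A, and ASXL1 and ASXL2 are alternative scaffold subunits that activate it. Together they form the Polycomb repressive deubiquitinase. FOXK1 and FOXK2 are forkhead transcription factors that bind BAP1 and DNA, MBD5 and MBD6 are proteins with a methyl-CpG-binding-like domain, and KDM1B is a histone demethylase. OGT attaches O-GlcNAc, a single sugar, to serine and threonine residues of nuclear proteins, among them HCFC1, a chromatin scaffold that OGT also cleaves. The ASXL1 and FOXK1 antibodies thus recognise products of members of the set, and the O-GlcNAc antibody recognises the product of the OGT reaction.

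Every one of the 10 genes had ASXL1 and O-GlcNAc peaks, and 4 genes had a FOXK1 peak as well. In each of the 10 genes an ASXL1 peak and an O-GlcNAc peak covered the start base itself and overlapped each other there. FOXK1 peaks covered the start of ASXL2, BAP1, FOXK1 and OGT. MBD5, MBD6, ASXL1, FOXK2, HCFC1 and KDM1B had no FOXK1 peak within 5 kb. In 4 genes, those with a FOXK1 peak, 1 region was held by all 3 lists.

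**Figure D1:**
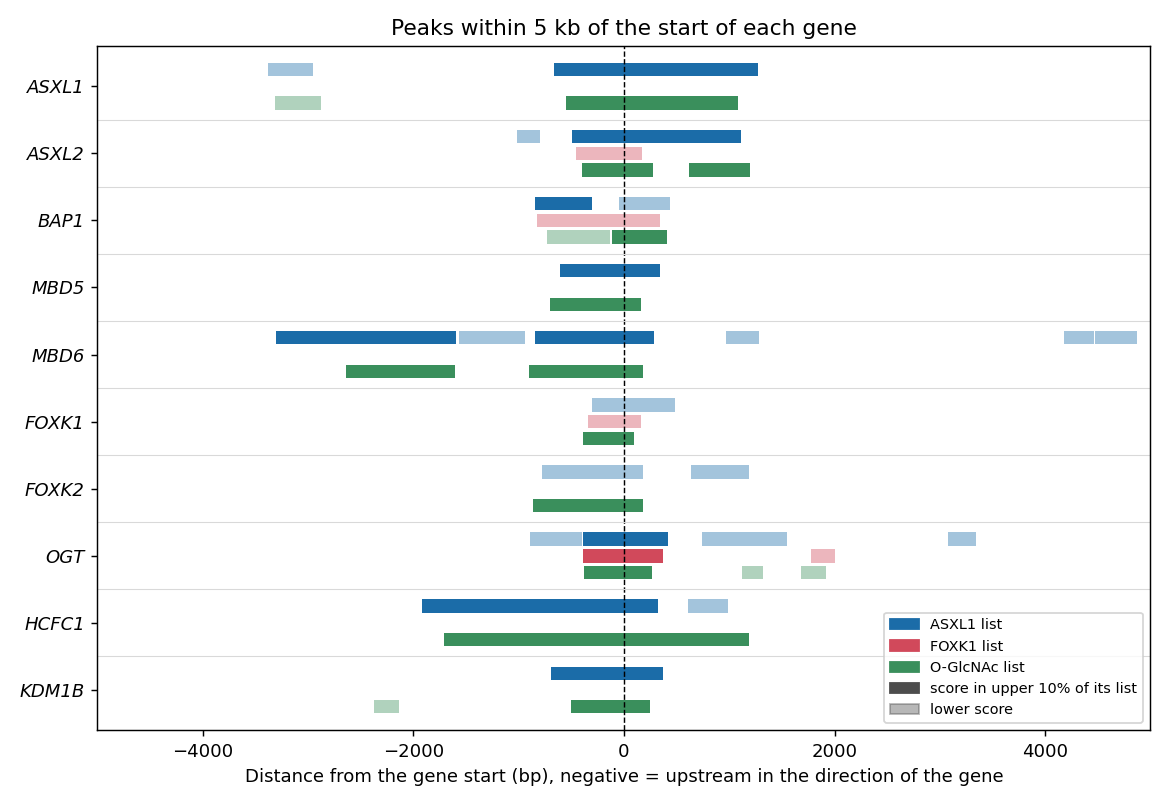
Peaks of the ASXL1 (blue), FOXK1 (red) and O-GlcNAc (green) lists by distance from the start of each gene in bp, with negative distances upstream in the direction of the gene. Full colour marks a score in the upper 10% of the list and pale colour a lower score. Blue and green bars cross the dashed start line in all 10 genes and red bars in 4.

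For comparison, chromosomes 1 to 22 and X were tiled with 303474 windows of 10 kb. Of these, 19.96% held an ASXL1 peak, 20.8% an O-GlcNAc peak and 6.38% a FOXK1 peak, against 10, 10 and 4 of the 10 genes. Both an ASXL1 and an O-GlcNAc peak were present in 9.29% of windows, against all 10 genes, and peaks of all 3 lists in 2.94%, against 4 genes. Single bases were covered by an ASXL1 peak in 1.31%, by an O-GlcNAc peak in 0.825% and by a FOXK1 peak in 0.385% of positions. The tiled windows lie anywhere on a chromosome, whereas the windows of the 10 genes are centred on gene starts, and other gene starts of hg19 were not analysed here. The counts for ASXL1 and O-GlcNAc are therefore above the genome at large, and nothing in them sets these 10 genes apart from gene starts in general.

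The share of genes with a FOXK1 peak was close to that of like windows. Among the 28207 tiled windows that held both an ASXL1 and an O-GlcNAc peak, 31.7% also held a FOXK1 peak. This was 43.6% in windows where both other lists had a score of at least 100, as they did in all 10 genes. It was 45.6% where an ASXL1 peak lay with an O-GlcNAc peak of the upper 10% of its list. A FOXK1 peak with a score of at least 100 was present in 16.7% of the 28207 windows and at 1 of the 10 genes. The 4 of 10 genes with any FOXK1 peak lay within the range of these shares, so this count is not a result about the members.

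**Figure D2:**
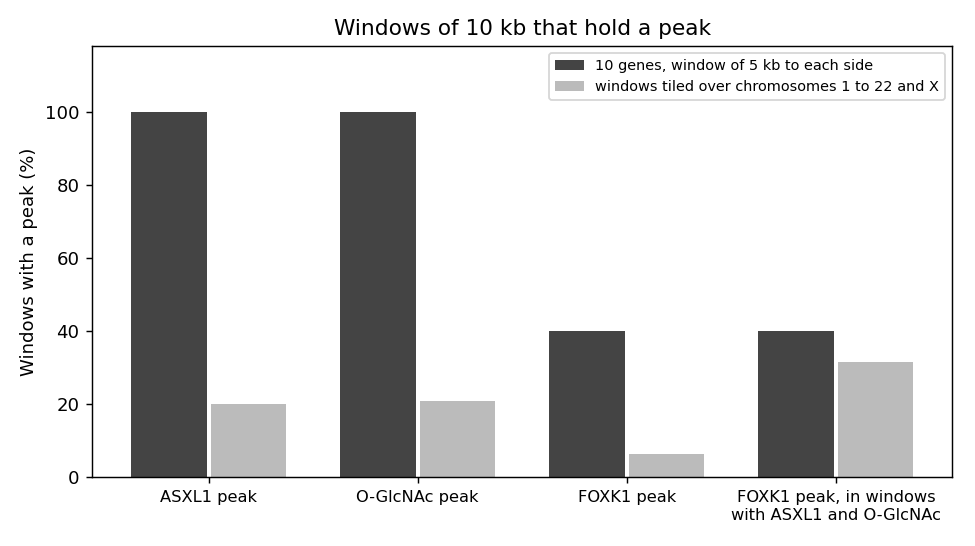
Percentage of 10 kb windows that hold a peak, for the 10 genes (dark bars) and for windows tiled over chromosomes 1 to 22 and X (light bars). For ASXL1 and O-GlcNAc the light bars reach 19.96% and 20.8%, and for FOXK1 6.38% of all windows and 31.7% of windows that hold peaks of both other lists.

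The sequences upstream of the starts are shown because every start peak of the set reached into the bases before the start. RefSeq promoter sequences of GRCh38.p14 matched 8 of the 10 genes, with BAP1 and HCFC1 not among them. The 250 bases before the first listed start are printed 5′ to 3′ on the strand of the gene, without the transcribed part. OGT, ASXL2 and FOXK1 were covered by FOXK1 peaks at their starts, while MBD6 and KDM1B were not. Capitals mark a match, on either strand, to 1 of 7 short strings: TGTTTAC for forkhead factors, CCGGAAG for ETS factors, CACGTG (E-box), TGACGTC (CRE), ATGGCGG for YY1, GCATGCG for NRF1 and ACTACAA for THAP11 and ZNF143. Coordinates are those of GRCh38.p14 and were not set against the hg19 peaks.
OGT (chrX:71532854-71533103, plus strand): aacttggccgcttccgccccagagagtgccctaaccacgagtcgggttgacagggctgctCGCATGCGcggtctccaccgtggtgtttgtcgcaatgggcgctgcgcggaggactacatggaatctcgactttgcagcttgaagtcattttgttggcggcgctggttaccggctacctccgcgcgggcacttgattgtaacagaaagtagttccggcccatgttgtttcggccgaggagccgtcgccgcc
ASXL2 (chr2:25878488-25878737, minus strand): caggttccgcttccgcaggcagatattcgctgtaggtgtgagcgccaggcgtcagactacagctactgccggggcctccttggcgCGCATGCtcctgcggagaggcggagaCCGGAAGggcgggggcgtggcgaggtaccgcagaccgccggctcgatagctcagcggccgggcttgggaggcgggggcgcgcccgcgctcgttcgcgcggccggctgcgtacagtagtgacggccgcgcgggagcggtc
FOXK1 (chr7:4682045-4682294, plus strand): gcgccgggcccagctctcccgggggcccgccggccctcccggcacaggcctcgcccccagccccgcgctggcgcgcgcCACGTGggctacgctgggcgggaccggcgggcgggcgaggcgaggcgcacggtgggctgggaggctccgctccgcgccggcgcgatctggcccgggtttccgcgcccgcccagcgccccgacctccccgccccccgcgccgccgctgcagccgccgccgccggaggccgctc
MBD6 (chr12:57522574-57522823, plus strand): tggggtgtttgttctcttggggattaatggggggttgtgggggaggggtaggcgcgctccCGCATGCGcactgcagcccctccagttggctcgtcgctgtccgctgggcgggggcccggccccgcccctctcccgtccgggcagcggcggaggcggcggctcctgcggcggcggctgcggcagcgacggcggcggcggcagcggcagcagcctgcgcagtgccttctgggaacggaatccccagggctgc
KDM1B (chr6:18155172-18155421, plus strand): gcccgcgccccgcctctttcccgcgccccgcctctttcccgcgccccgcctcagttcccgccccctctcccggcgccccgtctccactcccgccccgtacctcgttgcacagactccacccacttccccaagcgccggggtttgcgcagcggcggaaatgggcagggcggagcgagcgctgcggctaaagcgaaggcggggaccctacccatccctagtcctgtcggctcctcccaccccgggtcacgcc

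The first listed promoters ranged from near the middle of all promoters in G and C content to the upper end. Over the first listed starts of the 8 genes the 250 bases held from 60.8% to 85.6% G and C, with a median of 73.0%, against a median of 58.0% over 35116 RefSeq promoters of the same length, which count every listed start of a gene. CpG dinucleotides numbered 17 to 44, with a median of 29, against 11 over all promoters. The FOXK1 promoter was at the upper end, with 85.6% G and C and 44 CpG, and 99.7% of promoters had a lower G and C content. OGT, MBD5 and ASXL1 were nearer the middle, with 56.04%, 60.3% and 64.4% of promoters lower. MBD5 had the fewest CpG among the first listed starts with 17, and 61.05% of all promoters had fewer. The 8 genes have 12 listed starts in all, and the second start of ASXL2 went the other way, with 35.2% G and C and 1 CpG. The second start of MBD5 had 14 CpG.

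No forkhead string lay in any of the 8 first listed promoters, and 2.98% of all promoters held one. The absence says only that these letters are not in the 250 bases. GCATGCG was present upstream of OGT, MBD6 and ASXL2, and in 3.39% of all promoters. In OGT and MBD6 it overlapped its own reverse complement and counts as 1 place, beginning 190 bases before the start in both genes. CCGGAAG was present upstream of ASXL1, ASXL2 and MBD5 (8.52% of all promoters), and CACGTG upstream of FOXK1 and MBD5 (6.34%). None of the 7 strings was found upstream of KDM1B or FOXK2. Strings rich in G and C have more chances to occur in promoters of this composition, and the part of composition in these matches was not tested.

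OGT, the O-GlcNAc transferase gene, was the member at which all 3 lists ranked high. Its start on chromosome X at position 70752912 lay in an ASXL1 peak (chrX:70752526-70753330) with a score of 1849.6, higher than 98.7% of ASXL1 peaks. The O-GlcNAc peak there (chrX:70752535-70753181) scored 856, higher than 98.1% of its list. The FOXK1 peak (chrX:70752522-70753280) scored 957, which placed it at rank 99 of 21697 and above 99.5% of FOXK1 peaks.

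The 3 OGT peaks were nearly the same interval. They began 386, 377 and 390 bp upstream of the start for ASXL1, O-GlcNAc and FOXK1 and ended 418, 269 and 368 bp downstream. The O-GlcNAc peak lay whole, with all its 647 bp, inside both others. In the OGT sequence printed above, the place with GCATGCG begins 190 bases before the RefSeq start.

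Smaller peaks followed inside and upstream of the OGT gene. ASXL1 peaks lay 399 to 890 bp upstream (score 107), 745 to 1543 bp downstream (score 214) and 3081 to 3346 bp downstream (score 84.7). O-GlcNAc peaks of 65.8 and 57.3 lay 1124 to 1318 bp and 1683 to 1914 bp downstream. A second FOXK1 peak, 1778 to 1999 bp downstream with a score of 61.5, overlapped the latter by 137 bp and met no ASXL1 peak. OGT was thus the only member with 2 FOXK1 peaks, and its second one scored below most of its list, with 29.5% of FOXK1 peaks lower.

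BAP1, the gene of the catalytic subunit, had a pair of peaks in the ASXL1 list and a pair in the O-GlcNAc list. The gene lies on the minus strand of chromosome 3 with its start at position 52444121. O-GlcNAc was highest at the start, where a peak of 519 bp (chr3:52443714-52444232) scored 1929.9. This was the highest O-GlcNAc score of the set, at rank 312 of 78825. The second O-GlcNAc peak, 135 to 733 bp upstream, scored 125.

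The ASXL1 pair at BAP1 had the opposite order. The peak at the start (chr3:52443685-52444172) scored 179, and the peak 309 to 848 bp upstream (chr3:52444430-52444969) scored 619.9. The start peaks of both lists overlapped by 459 bp and the upstream peaks by 425 bp. Within each list, then, the larger score stood at the start for O-GlcNAc and upstream of it for ASXL1. A single FOXK1 peak of 1168 bp (chr3:52443783-52444950, score 84.7) ran from 829 bp upstream to 338 bp downstream and overlapped all 4 of these peaks. That score exceeded 57.2% of FOXK1 peaks.

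**Figure D3:**
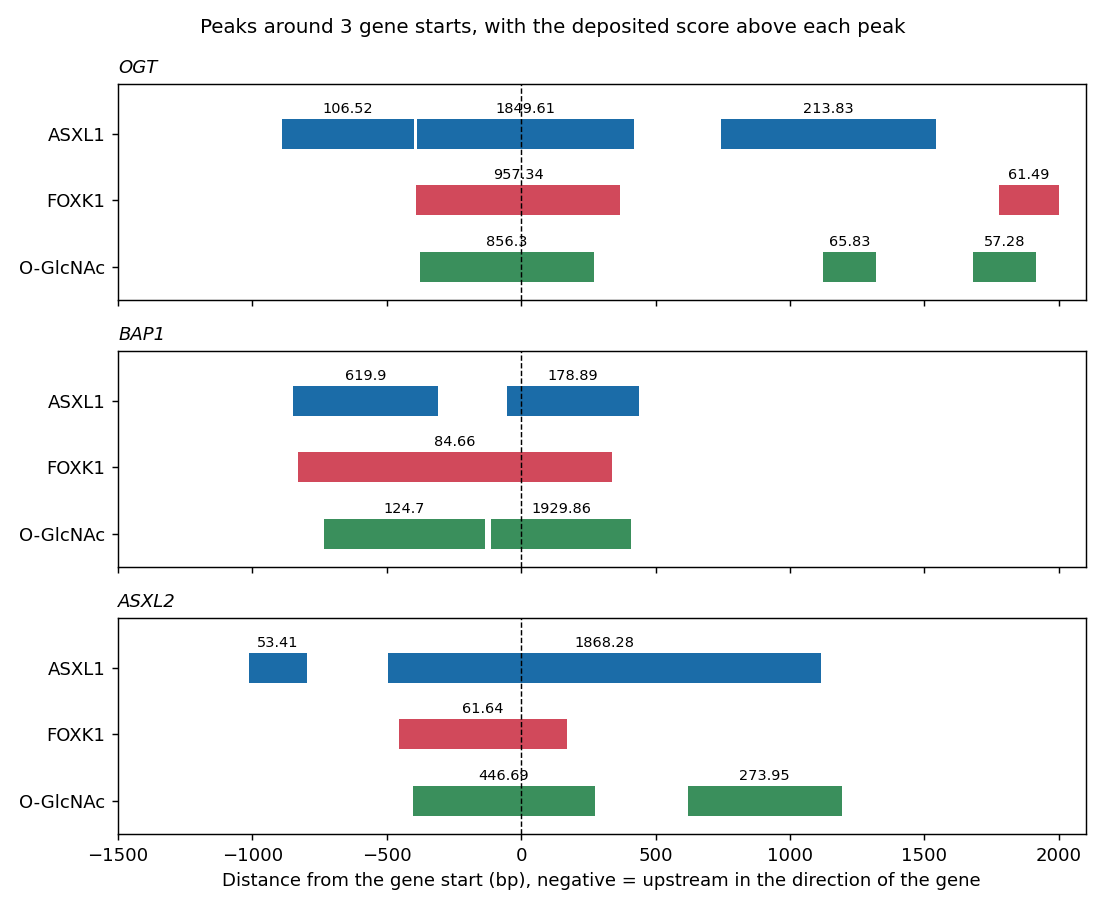
Peaks of the 3 lists at OGT, BAP1 and ASXL2 by distance from the gene start in bp (negative is upstream), with the deposited score above each bar. At OGT the 3 start peaks share 1 interval, at BAP1 the larger O-GlcNAc score (1929.9) is at the start and the larger ASXL1 score (619.9) upstream, and at ASXL2 the FOXK1 peak lies inside the ASXL1 peak.

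ASXL2 had the highest ASXL1 score of the set. The gene lies on the minus strand of chromosome 2, with its start at position 26101385. The ASXL1 peak at the start (chr2:26100271-26101881) was 1611 bp wide and scored 1868, above 98.7% of its list. It reached from 496 bp upstream to 1114 bp downstream. O-GlcNAc divided the same stretch into 2 peaks, of 447 over the start and 274 at 619 to 1191 bp downstream.

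The FOXK1 peak at ASXL2 (chr2:26101216-26101841) scored 61.6, above 29.9% of FOXK1 peaks. It lay whole within the ASXL1 peak and shared 571 bp with the O-GlcNAc peak at the start. A weak ASXL1 peak with a score of 53.4, 798 to 1012 bp upstream, overlapped neither other list.

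ASXL1, the paralog of ASXL2, had wide peaks of 2 lists and none of FOXK1. An ASXL1 peak of 1941 bp (chr20:30945481-30947421) covered the start at position 30946147 of chromosome 20 and scored 569, above 91.97% of its list. The O-GlcNAc peak (chr20:30945599-30947230) lay whole within it, with 1632 bp, and scored 1225, above 98.9% of its list. After BAP1 this was the second O-GlcNAc score of the set. A further pair of peaks overlapped by 359 bp about 3 kb upstream, with scores of 141 for ASXL1 and 105 for O-GlcNAc.

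The paralogs thus stood in opposite order in both lists: ASXL2 above ASXL1 by ASXL1 score, at 1868 and 569, and below it by O-GlcNAc score, at 447 and 1225. With 1 library each, the difference has no replicate check.

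MBD5 and MBD6 encode partner proteins of the deubiquitinase. The MBD5 start on chromosome 2 at position 148778580 had a single peak in each of both lists. The ASXL1 peak (chr2:148777972-148778918) scored 971 and the O-GlcNAc peak (chr2:148777873-148778743) 499, with 772 bp in common. Starts of ORC4, a gene of the opposite strand, lie within 5 kb of the MBD5 start in the GRCh38.p14 annotation, and the peaks cannot be assigned between these genes.

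MBD6 had the most ASXL1 peaks of any member, 6, and 2 O-GlcNAc peaks. Its start on chromosome 12 at position 57916632 was covered by an ASXL1 peak with a score of 613 and an O-GlcNAc peak with a score of 254, which shared 1027 bp. The highest scores of the window lay elsewhere. An ASXL1 peak of 1716 bp (chr12:57913324-57915039) scored 1432 at 1593 to 3308 bp upstream, and an O-GlcNAc peak of 1037 bp inside it scored 511. In the GRCh38.p14 annotation DDIT3, a gene of the stress response, starts within 5 kb upstream of MBD6 on the opposite strand, as does LOC128125814. Whether these upstream peaks belong to MBD6 or to a neighbour cannot be told apart.

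The other 4 ASXL1 peaks of MBD6 overlapped no other list and scored from 54.6 to 178. The last of them, 4476 bp downstream with a score of 178, was the assigned peak farthest from a start, and so the one nearest to the limit of 5 kb.

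Between the forkhead genes, FOXK1 had a FOXK1 peak at its own start and FOXK2 did not. The start of FOXK1 on chromosome 7 at position 4721930 was covered by 1 peak of each list. The FOXK1 peak (chr7:4721589-4722087) scored 63.7, above 33.5% of its list. The O-GlcNAc peak (chr7:4721544-4722025) scored 274, above 93.1% of its list, and the ASXL1 peak (chr7:4721628-4722416) scored 102, above 68.1%. The last is the lowest value of the set among the highest ASXL1 scores of each gene. The O-GlcNAc and FOXK1 peaks shared 437 bp.

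At FOXK2, on chromosome 17 with a start at position 80477594, the ASXL1 peak (chr17:80476814-80477774) scored 268 and the O-GlcNAc peak (chr17:80476730-80477772) 213, the lowest value among the highest O-GlcNAc scores of each gene. They shared 959 bp. A second ASXL1 peak of 78.2 lay 639 to 1188 bp downstream. By the highest ASXL1 score of each gene, both forkhead genes were thus lowest of the 10, at 102 and 268, although the peak at the start of BAP1 scored 179. They were the only members whose highest ASXL1 score was outside the upper 10% of its list.

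HCFC1, on the minus strand of chromosome X with its start at position 153236819, had the widest peaks of the set. Its ASXL1 peak (chrX:153236497-153238734) measured 2238 bp and scored 1088, and its O-GlcNAc peak (chrX:153235634-153238524) measured 2891 bp and scored 734. The O-GlcNAc peak overlapped both ASXL1 peaks of the gene, the second of which (score 247) lay 606 to 990 bp downstream. Both start peaks reached far upstream, to 1915 bp for ASXL1 and 1705 bp for O-GlcNAc. TMEM187, on the opposite strand, starts within 5 kb upstream of HCFC1 in the GRCh38.p14 annotation, and the antisense gene HCFC1-AS1 within 5 kb downstream. Whether parts of these wide peaks belong to HCFC1 or to a neighbour cannot be told apart.

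KDM1B, on chromosome 6 with its start at position 18155632, ranked high for ASXL1 and low among the 10 genes for O-GlcNAc, by the highest score of each gene. The ASXL1 peak (chr6:18154939-18155997) scored 1306, above 97.3% of its list. The O-GlcNAc peak (chr6:18155133-18155875) lay whole within it and scored 216, above 91.4% of its list and next to the lowest among the highest O-GlcNAc scores of each gene. A further O-GlcNAc peak of 66.8, at 2137 to 2376 bp upstream, was the only one of the 17 O-GlcNAc peaks that overlapped no other list. TPMT, a gene of the opposite strand, starts within 5 kb upstream in the GRCh38.p14 annotation, and the peaks cannot be assigned between it and KDM1B.

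Set side by side, the genes ranked high in 2 of the 3 lists. The highest ASXL1 score of each gene ran from 102 to 1868 with a median of 1029, and 8 of the 10 were in the upper 10% of the ASXL1 list. Among tiled windows that held peaks of ASXL1 and O-GlcNAc, the median of the highest ASXL1 score was 141.9 and 29.9% of windows were in that upper 10%, as were 15.4% of all windows with an ASXL1 peak. For O-GlcNAc the scores of the genes ran from 213 to 1929.9 with a median of 505, and all 10 genes were in the upper 10% of the list. The same windows had a median of 90.9 and 26.9% in the upper 10%, and the latter share was 12.6% over all windows with an O-GlcNAc peak. These windows lie anywhere on a chromosome, and scores at other gene starts were not analysed here. The high ranks therefore do not set the 10 genes apart from gene starts in general.

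FOXK1 scores did not stand high. The 4 genes had values of 957, 84.7, 63.7 and 61.6, with a median of 74.2, and 1 of the 4 was in the upper 10% of the FOXK1 list. Tiled windows with peaks of all 3 lists had a median of 105, and all windows with a FOXK1 peak a median of 79.04, with 11.4% in that upper 10%. OGT was thus far above the other 3 genes. BAP1 lay between these medians, and FOXK1 and ASXL2 lay below both.

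**Figure D4:**
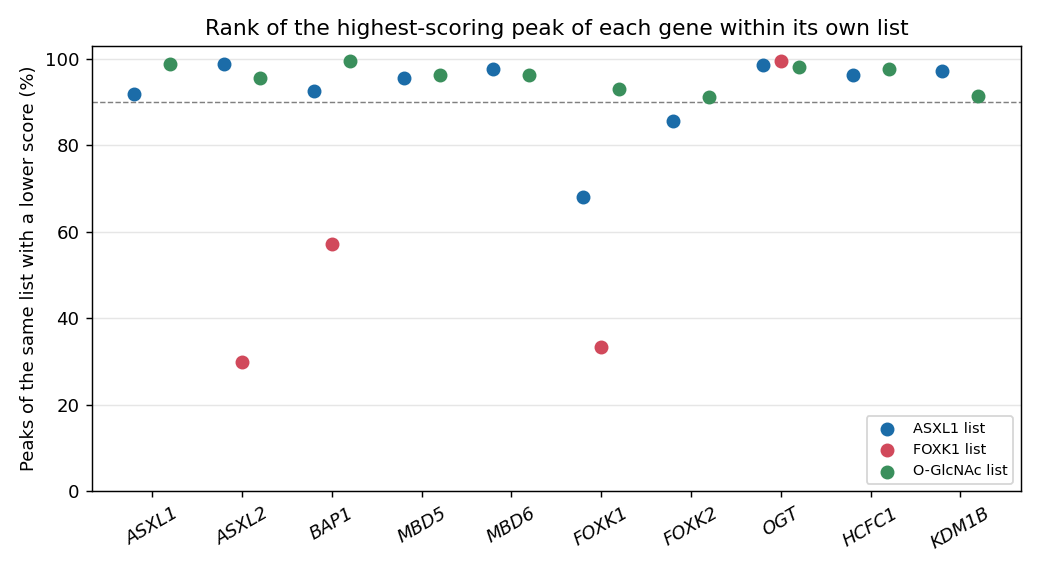
Share of peaks of the same list, in percent, that score lower than the highest-scoring peak of each gene. The dashed line marks the upper 10% of a list, which green points (O-GlcNAc) reach in all 10 genes, blue points (ASXL1) in 8 and red points (FOXK1) in OGT alone.

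The order of the genes differed between the ASXL1 and O-GlcNAc lists. Spearman's rho between the highest scores was 0.13 over the 10 genes and -0.018 for the peaks that covered the start. Over the 28207 tiled windows with both peaks it was 0.63. Of those windows, 26.9% were in the upper 10% of the O-GlcNAc list and 29.9% in that of ASXL1, against 10 and 8 of the 10 genes. The genes thus span a narrower part of the scores, and how far this lowers rho was not tested. Both libraries share a chromatin preparation and an input, and 10 genes give a loose estimate, so these are descriptions. By the highest score of each gene, OGT was in the upper 3 of both lists, and FOXK1 and FOXK2 were in the lowest 3 of both. By the peaks that covered the start, FOXK1 was not in the lowest 3 for O-GlcNAc. Its score of 274 was then above that of MBD6, at 254.

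Genes with and without a FOXK1 peak overlapped in their other scores. The highest ASXL1 scores had a range of 102 to 1868 in the 4 genes with a FOXK1 peak and of 268 to 1432 in the 6 without, with medians of 1235 and 1029. For O-GlcNAc the ranges were 274 to 1929.9 and 213 to 1225, with medians of 652 and 505. The presence of FOXK1 was therefore not matched by a separate range of either other list.

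For the 6 genes without FOXK1 the nearest FOXK1 peak is given as a description only, since no more than 6.38% of all tiled 10 kb windows held one. No FOXK1 peak lay between 5 and 20 kb of these starts. The nearest was at 22.1 kb for FOXK2 (score 72.0), 23.2 kb for MBD6 (190), 75.2 kb for ASXL1 (68.8), 92.4 kb for HCFC1 (50.8), 108.5 kb for KDM1B (69.7) and 173 kb for MBD5 (60.9). The lists begin at a score of 50, so a place without a listed peak is not shown to lack FOXK1.

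Peaks at the members were mostly shared between lists. Of the ASXL1 peaks 15 of 23 overlapped a peak of another list, of the O-GlcNAc peaks 16 of 17, and of the FOXK1 peaks 5 of 5. Over the whole lists the shares were 25.8%, 29.9% and 51.3%. The whole lists are not like peaks, with median widths of 269 bp for ASXL1 and 231 bp for O-GlcNAc. The highest-scoring peaks of the genes had medians of 1010 and 807 bp. All 10 gene windows also held peaks of both these lists, and the overlap in like windows was not measured. The 8 ASXL1 peaks without overlap scored from 53.4 to 178, and none of them covered a start. The start peaks of ASXL1 and O-GlcNAc had centres between 36 and 536.5 bp apart, with a median of 73.0 bp, and HCFC1 had the widest gap. The ASXL1 peak was the wider of the pair in 7 of the 10 genes.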

How the data were processed

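ChIP-seq libraries with 3 antibodies, 1 each, and 2 input libraries were made, per the labels' protocols, from chromatin fixed with 1% formaldehyde and sonicated to 150 to 400 bp, with 18 PCR cycles. Bowtie2 2.0.0, MACS 1.4 and hg19 are named in the submitters' processing notes. Settings, read filters and depth are not given in the sources used here. The authors deposited 1 peak list per library, with a score per peak of at least 50. The inputs were not analysed here except through these scores.

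Starts were taken as counted from 0 in the lists and are given from 1. Peaks were assigned to the 10 hg19 gene starts within 5 kb, and all members are named. Overlap meant at least 1 bp. Ranks are within a list. The background was windows of 10 kb tiled over chromosomes 1 to 22 and X up to the last peak end. Python 3.11.15, numpy 2.4.6 and scipy 1.17.1 were used, and the overlap code was tested on simulated data. Strands of BAP1 and HCFC1 came from general knowledge of these genes, and those of the others from RefSeq.

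The members, strings and backgrounds were chosen with earlier results of these data known. Further genes of the pathway were not analysed here, because no annotation of hg19 was used. Alternatives were score minimum, list length, window, peak centre, overlap and a start within 250 bp of the peak.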

Additional observations from a re-analysis of the deposited data

How the results depend on the processing

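Of 49 values under other settings, 39 stayed within 1.5 times the reported count or at the reported median score, and 10 moved. ASXL1 and O-GlcNAc peaks stayed at all 10 genes under windows of 1, 2 and 10 kb, peak centres and a score of at least 100. With the lists shortened to their 10000 highest scores, ASXL1 peaks were present at 8 genes, all but FOXK1 and FOXK2, and covered the start of 7 of these, all but BAP1. The FOXK1 counts depended on the score. With a score of at least 100, the genes with a FOXK1 peak, with peaks of all 3 lists, with a start covered by FOXK1 and with 1 region of all 3 lists each fell from 4 to 1, OGT. With the 10000 highest-scoring peaks each fell to 2, OGT and BAP1. Of tiled windows with ASXL1 and O-GlcNAc, 16.7% had a FOXK1 peak of at least 100. A window of 1 kb lowered the median of the highest scores to 795 for ASXL1 and 473 for O-GlcNAc, since the upstream peaks of MBD6 fall outside it.

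No paired analysis was possible because the labels give 1 library for every antibody, and none was left out. The unknown depth limits what a missing FOXK1 peak can say.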
